A study of Mus musculus with 8 samples.

Results

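Stellate cells and fibroblasts are the mesenchymal cells of the liver, and primary hepatocyte cultures can carry some of them along. Their content was read here from 10 marker genes, Col1a1, Col1a2, Col3a1, Dcn, Lrat, Des, Pdgfrb, Reln, Rgs5 and Acta2. These were chosen by name, without any rule on measured values, but with earlier results of these data known. All 10 were found among the 55450 genes of the count files, and all 10 were among the 15468 genes with at least 80 reads over the libraries, which were tested. The libraries were from primary hepatocytes of C57BL/6 mice at post-natal week 8, isolated by collagenase perfusion, plated on collagen and kept in serum-free medium with dexamethasone. LSKO cells, from Alb-cre(+/+);Slc39a8(F/F) mice, were given ferrous chloride, sodium selenite, zinc chloride or manganese chloride at 2 µM (1 library each) or left untreated (2 libraries). WT cells, from Slc39a8(F/F) mice, were untreated (2 libraries), so every mouse carried the floxed Slc39a8 gene and only the LSKO mice carried Cre. Slc39a8 encodes ZIP8, a metal and selenite importer. The treatment lasted 24 h by the labels and overnight by the series design.

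A quiescent stellate cell lies between hepatocytes and the sinusoidal endothelium, stores vitamin A as retinyl ester and wraps the sinusoid as a pericyte. On injury, or after some days on plastic, it turns into a contractile myofibroblast that lays down fibrillar collagen, driven mainly by transforming growth factor beta and platelet-derived growth factor. Portal fibroblasts around the bile ducts and smooth muscle cells of the vessel walls share some of these genes. The albumin promoter that drives Cre in LSKO mice is active in hepatocytes, so stellate cells of LSKO mice are not expected to lose the floxed gene.

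The libraries held 19943899 to 27731054 reads in genes. Slc39a8 had 47, 30, 45 and 75 reads in LSKO cells with iron, selenite, zinc and manganese, and 185 and 51 reads in untreated LSKO cells, against 367 and 356 reads in WT cells. Untreated LSKO replicate 1 thus stood apart from the other LSKO libraries, and calls of the 10 genes, of the lists and of the genes named from them were also made without it. In the manganese library 72.2% of reads fell in genes, where the rest had 39.3% to 42.1%. The iron, selenite, zinc and WT libraries each had 592678 to 680199 reads set aside as poorly aligned, and the manganese and both untreated LSKO libraries had 62, 0 and 0. The comparisons of iron, selenite and zinc with untreated LSKO cells, and of untreated LSKO with WT cells, cross this difference in read handling, and its part in them was not tested.

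The cultures carried the markers of hepatocytes at far higher levels than the mesenchymal genes. Levels are given as normalized CPM, the read count per 1e6 gene reads after scaling each library by its TMM factor (edgeR's trimmed mean normalization). The 15 hepatocyte markers summed to 22200 to 54000 normalized CPM, and the 10 mesenchymal genes summed to 23.9 to 57.9. Per kilobase of transcript, Dcn was the most abundant of the 10 genes, with a median of 4.66 normalized RPKM over the 8 libraries (2.36 to 5.88). Acta2 had a median of 2.38 normalized RPKM (0.196 to 5.94), Rgs5 of 1.96 (1.11 to 2.32), Lrat of 1.15 (0.419 to 1.56) and Col3a1 of 0.814 (0.242 to 1.25). In WT cells Acta2 stood above Dcn, with 5.54 and 5.94 normalized RPKM for Acta2 and 3.83 and 4.07 for Dcn, and in all 6 LSKO libraries Dcn stood above Acta2. The ranges of Acta2 and Rgs5 overlapped. The other 5 genes had medians between 0.164 for Pdgfrb and 0.317 normalized RPKM for Des, and their ranges overlapped as well.

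The summed level was lowest with iron and next lowest with zinc. It was 23.9 normalized CPM with iron, 55.0 with selenite, 44.5 with zinc and 55.6 with manganese, against 57.9 and 54.7 in untreated LSKO cells, and 53.8 and 56.1 in WT cells. The iron library held 42.5% of the mean of the untreated LSKO libraries, the zinc library 79.0% and the selenite library 97.6%. In this sum the pairs of untreated libraries differed little, with an SD of 0.0395 for LSKO and 0.0282 for WT as a share of that mean (n = 2 each). Single genes differed more. Their ratio of replicate 1 to replicate 2 ran from 0.722 for Reln to 1.7 for Col1a1 in the LSKO pair. In the WT pair it ran from 0.64 for Col1a1 to 1.64 for Reln. Decorin alone made up 46.2% of the sum with iron, 50.1% with selenite, 48.5% with zinc and 45.0% with manganese, against 38.3% and 41.9% in untreated LSKO cells, and 33.4% and 34.1% in WT cells. Without Dcn, the sum was 12.9 normalized CPM with iron, 27.4 with selenite, 22.9 with zinc and 30.6 with manganese, against 35.7 and 31.8 in untreated LSKO cells, and 35.8 and 37.0 in WT cells. With Dcn left out all 4 treated libraries lay below all 4 untreated ones. The near-equal total with selenite depended on the scale. Its ratio to untreated LSKO cells was 0.976 with TMM factors, 0.825 per gene read and 0.636 per hepatocyte marker read. The hepatocyte marker sum with selenite was itself 1.51 of that in untreated LSKO cells. In bulk RNA, fewer cells of a type and less RNA of these genes per cell cannot be told apart.

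**Figure D1:**
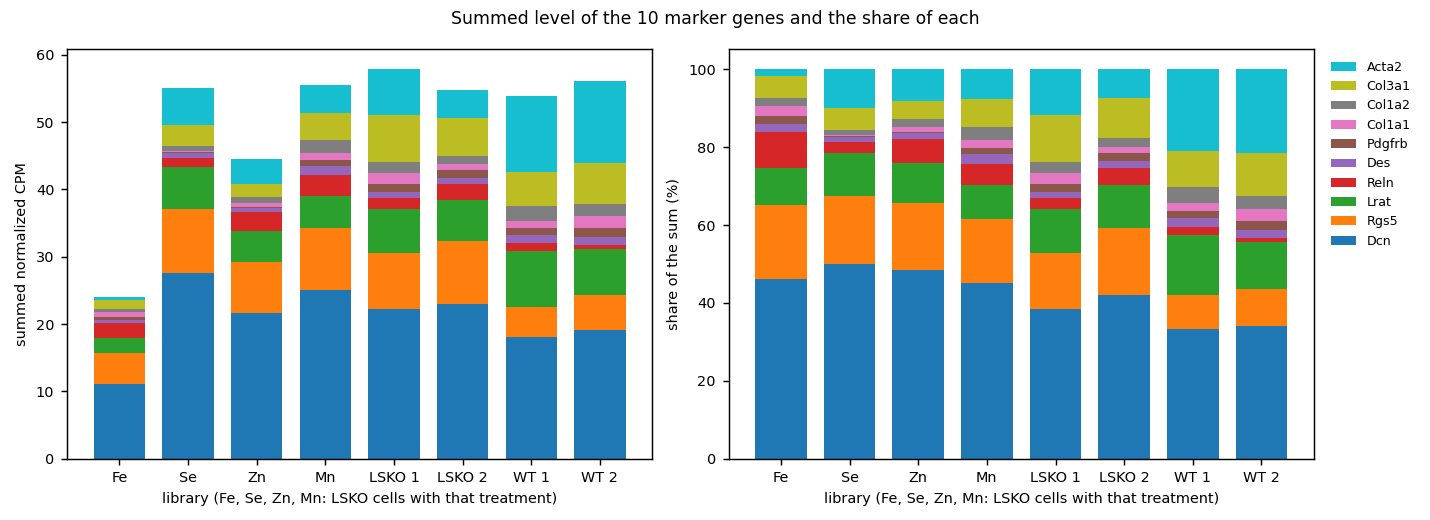
Summed level of the 10 marker genes in each library (left, normalized CPM) and the share of each gene in that sum (right, percent). The iron library sits at 23.9 normalized CPM and the other 7 libraries lie between 44.5 and 57.9. The share of Acta2 is 1.67% with iron, against 21.0% and 21.6% in the WT libraries.

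Iron-treated LSKO cells were compared with untreated LSKO cells in a fit of all 8 libraries with edgeR (quasi-likelihood F test). A gene counted as called where p, adjusted by Benjamini-Hochberg, was under 0.05 and the log2 fold change was over 0.5 up or down. Whether replicates are separate animals is not stated, so a p reflects only the spread of these libraries, and each single library was taken to vary as the LSKO and WT pairs do. With iron, 5 of the 10 genes were called lower (Acta2, Col3a1, Lrat, Dcn and Rgs5) and 0 higher. Over all genes tested, 4.89% were called lower and 3.80% higher, 8.70% in either direction. The median log2 fold change was -1.17 over the 10 genes and 0 over all genes tested. Iron gave the lowest level of the 8 libraries in 7 of the 10 genes, which was so for 15.0% of all genes tested, and under 50% of the untreated LSKO mean in 6 of the 10 genes, against 7.17% of all genes tested. Each of the 5 calls held when any 1 of the untreated libraries was left out.

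Acta2 encodes smooth muscle alpha-actin, the contractile protein by which activated stellate cells are recognised. Its gene lies on chromosome 19 of GRCm38, from 34241090 to 34255590 on the minus strand. Acta2 had 8 reads with iron, 111 with selenite, 90 with zinc and 99 with manganese, against 156 and 112 in untreated LSKO cells, and 325 and 277 in WT cells. The iron count lay far under every other library, and both WT counts lay above every LSKO count. In normalized CPM this was 0.399 with iron (95% exact Poisson interval 0.172 to 0.786), 5.48 with selenite, 3.67 with zinc and 4.19 with manganese, against 6.87 and 4.12 in untreated LSKO cells, and 11.3 and 12.1 in WT cells. Such intervals cover counting error only. With iron the log2 fold change of Acta2 against untreated LSKO cells was -3.76 (standard error, SE, 0.487, adjusted p = 0.000939 from edgeR's test). The untreated LSKO replicates differed 1.67-fold in Acta2, beyond counting error (two-sided exact binomial p = 3.64e-05), and the log2 fold change was -3.38 without replicate 1 and -4.10 without replicate 2.

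Col3a1 encodes type III collagen, a fibrillar collagen of the sinusoidal wall and of scars. It lies on chromosome 1 of GRCm38, from 45311538 to 45349706 on the plus strand. It shares exon sequence with Gm47302 on the same strand, so reads there may not have been counted for either gene. Its reads numbered 27 with iron, 63 with selenite, 48 with zinc and 96 with manganese, against 158 and 153 in untreated LSKO cells, and 144 and 141 in WT cells. All 4 treated libraries lay below all 4 untreated ones, iron lowest. In normalized CPM, Col3a1 had 1.35 with iron, 3.11 with selenite, 1.96 with zinc and 4.07 with manganese, against 6.29 ± 0.942 in untreated LSKO cells and 5.57 ± 0.817 in WT cells (SD, n = 2 each). With iron its log2 fold change against untreated LSKO cells was -2.22 (SE 0.33, adjusted p = 0.00208).

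The sequences around the start sites of these genes are shown because Acta2 and Col3a1 fell most with iron among the 5 genes called, and both are known targets of the myofibroblast programme. Windows from 250 bases before to 50 after the start were taken from RefSeq (GRCm38.p6), in which 7 of the 10 genes were matched, all except Col1a1, Dcn and Pdgfrb. Capitals mark matches to the CArG-like motif, bound by serum response factor (searched as CC, then 6 letters of which at most 1 is not A or T, then GG), to CATTCC, bound by TEAD factors, or to TATAAA, the core of the TATA box, each on both strands. The Acta2 window covers chr19:34255324-34255623 on the minus strand and that of Col3a1 covers chr1:45311288-45311587 on the plus strand.
Acta2: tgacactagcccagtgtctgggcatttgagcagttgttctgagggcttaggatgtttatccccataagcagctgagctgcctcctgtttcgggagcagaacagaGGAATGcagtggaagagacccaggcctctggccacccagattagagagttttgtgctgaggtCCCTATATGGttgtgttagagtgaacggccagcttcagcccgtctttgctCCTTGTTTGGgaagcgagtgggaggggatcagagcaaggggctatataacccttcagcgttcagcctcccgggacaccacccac
Col3a1: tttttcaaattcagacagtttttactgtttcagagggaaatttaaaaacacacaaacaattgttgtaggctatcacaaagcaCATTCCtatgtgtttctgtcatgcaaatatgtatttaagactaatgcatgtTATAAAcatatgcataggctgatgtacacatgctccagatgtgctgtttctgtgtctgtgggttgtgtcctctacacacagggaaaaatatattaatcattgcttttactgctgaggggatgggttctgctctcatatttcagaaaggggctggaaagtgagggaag

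The Acta2 window held 2 CArG-like matches, CCCTATATGG from -84 to -75 and CCTTGTTTGG from -34 to -25 relative to the RefSeq start, and GGAATG, the other strand of CATTCC, from -146 to -141. The RefSeq start of Acta2 lies inside the gene as placed above, so these positions do not count from its outer end at 34255590. The Col3a1 window held CATTCC from -168 to -163 and TATAAA from -117 to -112. A CArG-like match was also in the windows of Col1a2 (-228 to -219) and Lrat (-223 to -214), with CATTCC from -208 to -203 in that of Lrat, and the windows of Des, Reln and Rgs5 held no match of these 3 kinds. Of 32851 RefSeq windows of the same length, 9.98% held a CArG-like match, 0.609% held at least 2 that did not overlap, 14.7% held CATTCC and 13.6% held TATAAA. A match describes letters alone.

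Lrat encodes lecithin retinol acyltransferase, which makes the retinyl ester that quiescent stellate cells store, and is the most specific of the 10 genes for that cell in liver. It lies on chromosome 3, from 82892579 to 82903973. Lrat had 45 reads with iron, 125 with selenite, 112 with zinc and 114 with manganese, against 148 and 166 in untreated LSKO cells, and 240 and 156 in WT cells. The iron count lay well below the other 7, which ran from 112 to 240. Its normalized CPM was 2.24 with iron, against 6.31 ± 0.292 in untreated LSKO cells and 7.57 ± 1.08 in WT cells (SD, n = 2 each), and the log2 fold change of iron against untreated LSKO was -1.49 (SE 0.272, adjusted p = 0.00624).

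Dcn encodes decorin, a small proteoglycan that binds collagen fibrils and is made by quiescent stellate cells and fibroblasts alike. It lies on chromosome 10, from 97479609 to 97518143. Dcn had 222 reads with iron, 558 with selenite, 529 with zinc and 590 with manganese, against 503 and 623 in untreated LSKO cells, and 518 and 438 in WT cells. In normalized CPM this was 11.1 with iron (9.66 to 12.6), 27.6 with selenite (25.3 to 30.0), 21.6 with zinc and 25 with manganese, against 22.5 ± 0.538 in untreated LSKO cells and 18.5 ± 0.803 in WT cells (SD, n = 2 each). Iron was the lowest of the 8 libraries and selenite the highest. The log2 fold change of iron against untreated LSKO was -1.03 (SE 0.143, adjusted p = 0.00145).

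Rgs5, a regulator of G protein signaling and a marker of pericytes, lies on chromosome 1 from 169655501 to 169695813. It had 91 reads with iron, 192 with selenite, 188 with zinc and 218 with manganese, against 190 and 257 in untreated LSKO cells, and 132 and 120 in WT cells. In normalized CPM, Rgs5 had 4.54 with iron (3.65 to 5.57), against 8.91 ± 0.767 in untreated LSKO cells and 4.91 ± 0.463 in WT cells (SD, n = 2 each). The iron culture was thus below the other LSKO cultures and within the counting error of the WT cultures. The log2 fold change of iron against untreated LSKO was -0.98 (SE 0.224, adjusted p = 0.019), and the call was not kept by DESeq2 (adjusted p = 0.106).

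**Figure D2:**
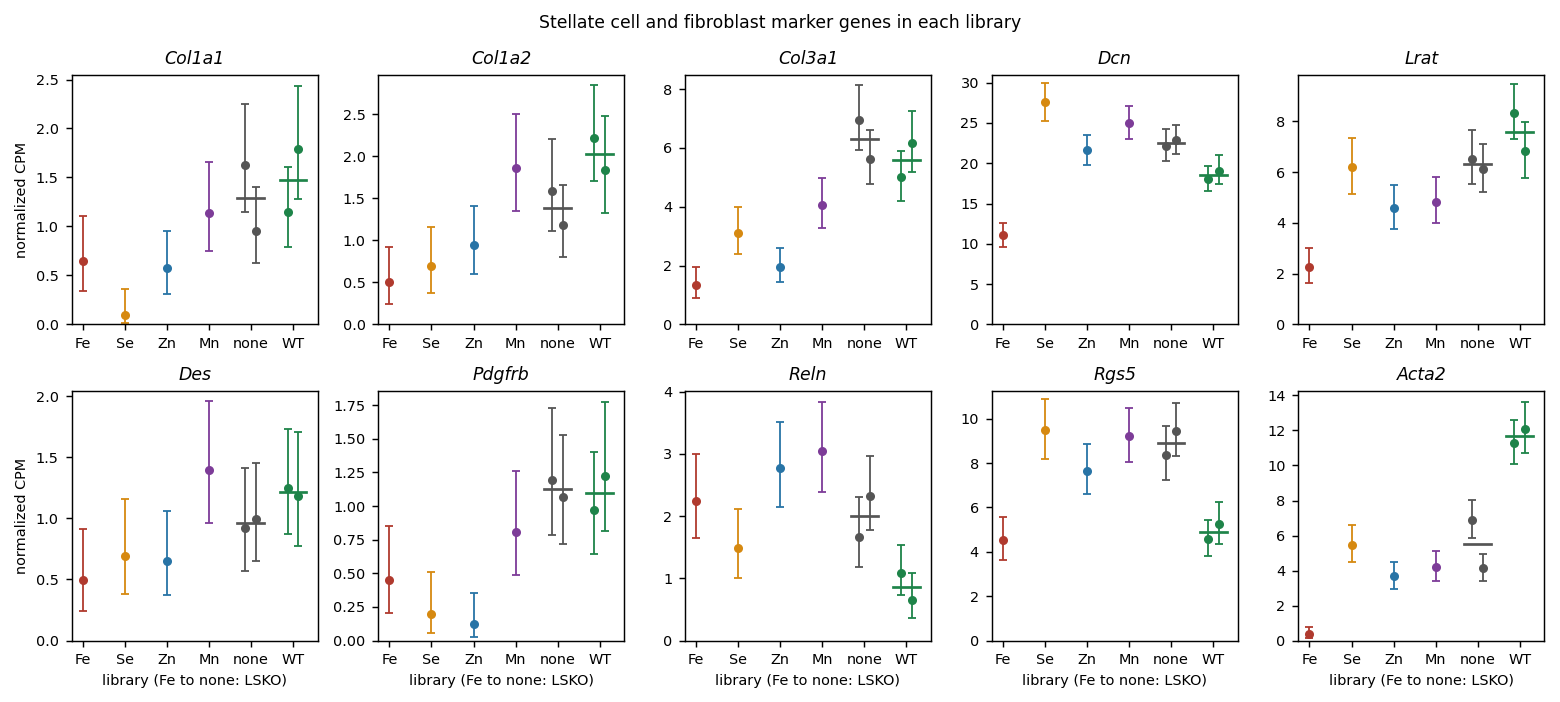
Normalized CPM of each of the 10 marker genes by library, with LSKO cells given iron (Fe), selenite (Se), zinc (Zn), manganese (Mn) or no addition (none), and untreated WT cells. Each point is 1 library, vertical bars are 95% exact Poisson intervals and horizontal lines are means of a pair. Acta2 sits at 0.399 with iron, against 11.3 and 12.1 in the WT libraries. Reln sits at 2.24 with iron, above both WT libraries at 1.08 and 0.655.

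The other 5 genes were not called with iron. Col1a2, for the second chain of type I collagen, had 10 reads with iron, against 36 and 32 in untreated LSKO cells, with a log2 fold change of -1.45 (SE 0.529, adjusted p = 0.0991). Pdgfrb, the receptor through which platelet-derived growth factor drives stellate cell growth, had 9 reads with iron, against 27 and 29 in untreated LSKO cells (log2 fold change -1.32, adjusted p = 0.169). Col1a1, for the main chain of type I collagen, had 13 reads with iron, against 37 and 26 in untreated LSKO cells. Des, for the muscle-type filament protein desmin, had 10 with iron, against 21 and 27 in untreated LSKO cells. These 4 genes all had fewer reads with iron than in either untreated LSKO library, and none was called. Reln, for the secreted protein reelin, was the exception, with 45 reads with iron, against 38 and 63 in untreated LSKO cells (log2 fold change 0.16, 95% interval -0.72 to 1.04).

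Selenite cells had lower collagen and Pdgfrb reads beside near-equal Lrat, Rgs5 and Acta2. Against untreated LSKO cells 3 of the 10 genes were called lower with selenite (Col1a1, Pdgfrb and Col3a1) and 0 higher, where 9.67% of all genes tested were called lower and 7.89% higher (17.6% in all). The median log2 fold change was -0.45 over the 10 genes and -0.01 over all genes tested. Col1a1 (chromosome 11, 94936224 to 94953042) had 2 reads with selenite, 14 with zinc and 27 with manganese, against 37 and 26 in untreated LSKO cells, and 33 and 41 in WT cells. The selenite count was the lowest of the 8 libraries. The ratio of the Col1a1 level with selenite to that in untreated LSKO cells was 0.0782, with a 95% counting interval of 0.00927 to 0.295 (fitted log2 fold change -3.63, SE 0.873, adjusted p = 0.013 from edgeR's test).

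Pdgfrb (chromosome 18, 61045150 to 61085061) had 4 reads with selenite, 3 with zinc, 9 with iron and 19 with manganese, against 27 and 29 in untreated LSKO cells, and 28 and 28 in WT cells. Selenite and zinc gave its lowest counts. The ratio of Pdgfrb to untreated LSKO cells was 0.176 with selenite (0.0464 to 0.476) and 0.109 with zinc (0.0218 to 0.335), with adjusted p = 0.0239 and 0.0306 from edgeR's test. Col3a1 had a log2 fold change of -1.01 with selenite (SE 0.284, adjusted p = 0.0252). DESeq2 kept the selenite call of Col1a1 alone (adjusted p = 0.0466, against 0.145 for Col3a1 and 0.167 for Pdgfrb). Without untreated LSKO replicate 1, the selenite call was kept for Col1a1 (adjusted p = 0.0171) and lost for Col3a1 (0.0569) and Pdgfrb (0.059). The transcripts of the 3 genes called are long, between 5423 and 5930 bases, with 52.5% to 58.9% GC, and a correction for length and GC content in the selenite comparison left Col1a1 called (log2 fold change -3.00, adjusted p = 0.0488) and not Col3a1 (-0.65, 0.14) or Pdgfrb (-2.04, 0.0774).

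Lrat, Rgs5, Acta2 and Dcn were not called with selenite. Lrat had 6.18 normalized CPM with selenite and a log2 fold change of -0.03 against untreated LSKO cells (95% interval -0.54 to 0.48). Rgs5 had 9.49 normalized CPM (log2 fold change 0.09, -0.36 to 0.54) and Acta2 5.48 (0.01, -0.65 to 0.67). Dcn had the highest level of the 8 libraries with selenite, with a log2 fold change of 0.29 (SE 0.128, adjusted p = 0.118). For Col1a2, Des and Reln the log2 fold changes were -0.98, -0.47 and -0.44, none of them called.

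With zinc 2 genes were called lower (Pdgfrb and Col3a1) and 0 higher, against 1.55% lower and 2.90% higher among all genes tested (4.45% in either direction). The median log2 fold change was -0.55 over the 10 genes and -0.01 over all. Col3a1 had 48 reads with zinc, and its log2 fold change was -1.68 (SE 0.298, adjusted p = 0.00771). Both calls held when any 1 untreated library was left out. DESeq2 kept Col3a1 (adjusted p = 0.0243) and lost Pdgfrb, which had 3 reads with zinc (log2 fold change -3.20, adjusted p = 0.258). Acta2 was called as well by edgeR without untreated LSKO replicate 2 (log2 fold change -0.89, adjusted p = 0.0415, against -0.57 and 0.354 with all libraries). The log2 fold changes of Dcn, Rgs5 and Lrat with zinc were -0.06, -0.22 and -0.47, and none was called.

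With manganese 0 of the 10 genes were called, against 2.09% higher and 15.1% lower over all genes tested (17.2% in all). DESeq2 also called 0. At an unadjusted p under 0.05, edgeR's fit gave Col3a1 alone (log2 fold change -0.63, adjusted p = 0.14). The median log2 fold change was -0.06 over the 10 genes and -0.02 over all. The share of genes called lower in the manganese library went with its higher share of reads in genes, and only 136 of 9900 genes were called when genes with an exon of another gene on the opposite strand were left out. Of the 10 genes, 8 have no such exon, and 0 of these 8 were called there either. Des shares 220 exon bases with Gm15179 and Reln shares 246 with Gm10475 on the opposite strand. Their manganese levels were the highest of the 8 libraries, at 1.40 and 3.05 normalized CPM. Over all genes tested, 2330 were lower and 324 higher with manganese, against 62 and 74 of the 9900 without such exons. What the shared bases did to the levels of Des and Reln was not tested.

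**Figure D3:**
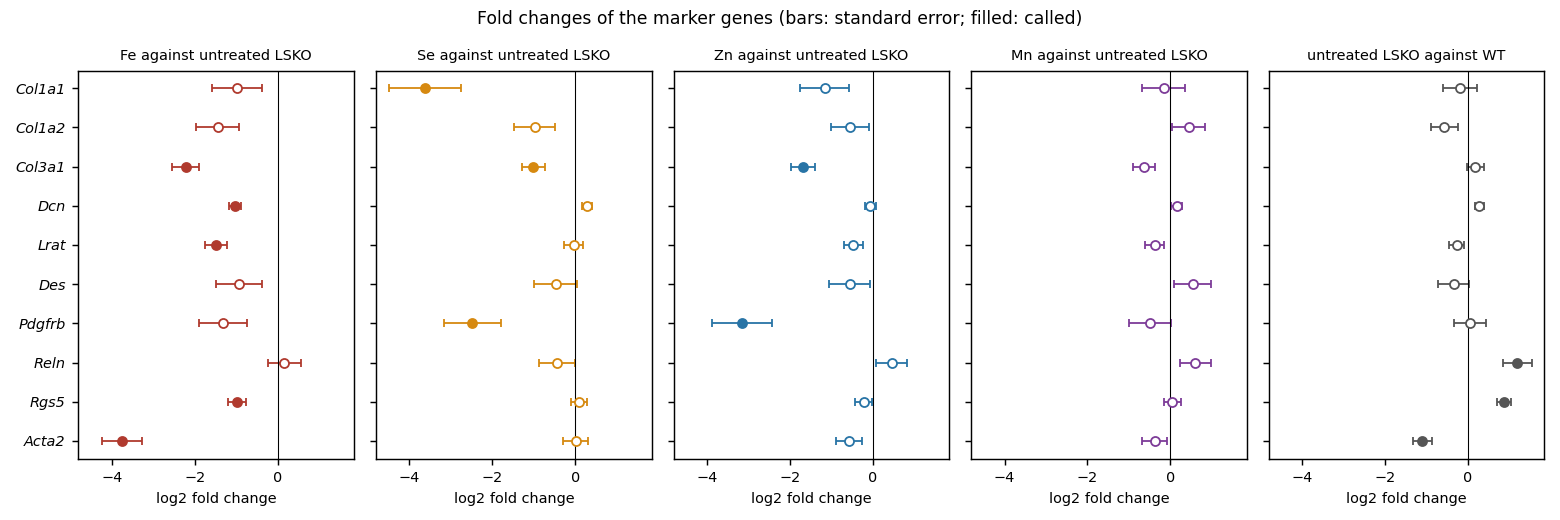
Log2 fold change of each marker gene with iron, selenite, zinc and manganese against untreated LSKO cells, and in untreated LSKO against WT cells. Bars are standard errors and filled points are genes called by edgeR's test. Filled points lie left of 0 for 5 genes with iron, 3 with selenite and 2 with zinc, there are 0 with manganese, and LSKO against WT has Reln and Rgs5 to the right and Acta2 to the left.

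Untreated LSKO cells were compared with untreated WT cells to see what the cultures differed in before any addition. In LSKO cells 2 of the 10 genes were higher (Reln and Rgs5) and 1 was lower (Acta2), against 6.74% higher and 3.70% lower among all genes tested (10.4% in all). The median log2 fold change was -0.07 over the 10 genes and 0 over all. Rgs5 had 8.37 and 9.45 normalized CPM in untreated LSKO cells, against 4.58 and 5.24 in WT cells, with a log2 fold change of 0.87 (SE 0.171, adjusted p = 0.00669). Reln, a protein of stellate cells best known from the developing brain, had 38 and 63 reads in untreated LSKO cells, against 31 and 15 in WT cells (log2 fold change 1.19, SE 0.354, adjusted p = 0.0474). Acta2 had 5.50 ± 1.95 normalized CPM in untreated LSKO cells and 11.7 ± 0.572 in WT cells (SD, n = 2 each), with a log2 fold change of -1.10 (SE 0.225, adjusted p = 0.00838). For these 3 genes the LSKO and WT pairs did not overlap. That was also so for 29.0% of all genes tested with LSKO lower and for 31.8% with LSKO higher.

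The calls between LSKO and WT depended on single libraries. Without WT replicate 1, 0 of the 10 genes were called (adjusted p = 0.0789 for Reln, 0.0783 for Rgs5 and 0.0861 for Acta2), with log2 fold changes of 1.64, 0.79 and -1.12. Without WT replicate 2, Rgs5 alone was called, and without untreated LSKO replicate 1 all 3 were. Reln was also lost without untreated LSKO replicate 2 (0.335), with DESeq2 (0.272) and with the replicate number as a block in a fit of the 4 untreated libraries (0.0519). Over the 10 genes, both LSKO levels lay below both WT levels in 4 (Col1a2, Lrat, Des and Acta2), against 29.0% of all genes tested, and above them in 3 (Dcn, Reln and Rgs5), against 31.8%.

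Iron, selenite and zinc LSKO cells were also set against WT cells, a comparison in which all libraries had the same kind of read handling. It shares no library with the untreated LSKO group. Genotype and treatment change together in it and 3 treatments are averaged, so their parts cannot be told apart. Untreated LSKO cells already had log2 fold changes against WT cells of -1.10 for Acta2 and 1.19 for Reln. The level of Acta2 was 0.399 normalized CPM with iron, 5.48 with selenite and 3.67 with zinc. Of the 10 genes, 6 were called lower (Acta2, Pdgfrb, Col1a1, Col1a2, Col3a1 and Lrat) and Reln was called higher, where 6.93% of all genes tested were called lower and 7.12% higher (14.0% in all). The median log2 fold change was -1.23 over the 10 genes and 0 over all. In 7 of the 10 genes (the 6 called lower and Des) all 3 treated libraries lay below both WT libraries, against 15.7% of all genes tested. Acta2 had a log2 fold change of -2.54 (SE 0.243, adjusted p = 8.03e-05), Col3a1 of -1.46 (0.212, 0.000867) and Lrat of -0.93 (0.173, 0.00346). DESeq2 kept the calls of these 3 genes and not the other 4, with an adjusted p of 0.0577 for Col1a2 and 0.106 for Reln and none given for Col1a1 and Pdgfrb.

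Each collagen gene was below both WT libraries in all 3 of these cultures, and DESeq2 called Col3a1 alone of them. The log2 fold changes of the other collagen genes by edgeR were -2.10 for Col1a1 (SE 0.473, adjusted p = 0.00897) and -1.56 for Col1a2 (0.329, 0.00659), beside -2.27 for Pdgfrb (0.454, 0.00507). Reads of the 3 collagen genes summed to 50 with iron, 79 with selenite, 85 with zinc and 167 with manganese, against 231 and 211 in untreated LSKO cells, and 241 and 224 in WT cells. As a share of the normalized CPM of the 10 genes, the collagens were 10.4% with iron, 7.10% with selenite, 7.79% with zinc and 12.7% with manganese, against 17.6% and 14.2% in untreated LSKO cells, and 15.5% and 17.4% in WT cells. Dcn had a log2 fold change of 0.02 (95% interval -0.20 to 0.24) and Rgs5 of 0.50, not beyond the threshold of size. Without WT replicate 2, the calls of Col1a1 (adjusted p = 0.0849) and Reln (0.126) were lost, and Rgs5 passed the threshold of size with either untreated LSKO library left out.

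The treated cultures differed among themselves. Selenite cells were set against the mean of iron and zinc cells, where 7.53% of all genes tested were called higher and 8.35% lower (15.9% in all). Of the 10 genes 4 were called higher with selenite (Acta2, Lrat, Dcn and Rgs5) and 0 lower, with a median log2 fold change of 0.48, against 0.02 over all. Iron was then set against the mean of selenite and zinc, a comparison chosen after iron was seen to be lowest, so its values describe the same libraries a second time. It called the same 4 genes lower with iron and 0 higher, where 9.43% of all genes tested were called lower and 8.68% higher (18.1% in all), with a median of -0.78 over the 10 genes, against 0 over all. For Col1a1 and Pdgfrb the iron level was above the selenite and zinc mean (log2 fold changes 1.42 and 1.5, 95% intervals -0.29 to 3.13 and -0.17 to 3.17), neither of them called.

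Further gene lists were read for the roles around the 10 genes, none of which they contain. Their counts of calls are to be read against the shares over all genes tested, given above for each comparison. Of 18 quiescent stellate cell genes, 10 were tested, and 5 were lower with iron and 0 higher, with a median log2 fold change of -1.41. Nes, for nestin, a filament protein of stellate cells, had 37 reads with iron, against 153 and 162 in untreated LSKO cells (log2 fold change -1.78, SE 0.283, adjusted p = 0.00301). The lectin gene Colec11 and the extracellular superoxide dismutase Sod3 had 1 read each with iron, against 13 and 29 for Colec11 and 24 and 26 for Sod3 in untreated LSKO cells. DESeq2 called 2 of the 10 lower with iron, without Sod3 (adjusted p = 0.146) and with no adjusted p for Colec11, and with 1 untreated library left out edgeR called 4 to 7 lower. With selenite 1 was higher and 0 lower, with zinc 0 changed, and with manganese 1 was lower. In LSKO against WT 1 was higher.

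Of 28 myofibroblast and matrix genes, 23 were tested, and 12 were lower with iron and 1 higher, with a median of -1.07. The actin-binding Tagln, known as SM22, had 134 reads with iron, 464 with selenite and 432 with zinc, against 391 and 368 in untreated LSKO cells, and its log2 fold changes were -1.20 with iron (adjusted p = 0.00352) and 0.58 with selenite (adjusted p = 0.0272). The selenite call of Tagln was lost with DESeq2 (0.174), with the length and GC correction (0.177) and without either WT library (0.0704 each) or untreated LSKO replicate 2 (0.144). Tagln had 6 reads with manganese, but shares 1349 exon bases with Gm48529 and Pcsk7 on the opposite strand. Col5a1, a collagen that starts type I fibrils, had 5 reads with iron, against 52 and 45 in untreated LSKO cells, and the microfibril gene Fbn1 had 3 with iron and 6 with selenite, against 37 and 30 in untreated LSKO cells. DESeq2 called 8 of the 23 lower with iron, without Fbn1, and edgeR 11 to 13 with 1 untreated library left out. Over all genes tested, 7.89% were higher and 9.67% lower with selenite, and 2.90% and 1.55% with zinc. For manganese these shares were 2.09% and 15.1%, and for LSKO against WT 6.74% and 3.70%. Of the 9900 genes without opposite-strand exons, 62 were lower with manganese. Selenite called 2 of the 23 higher and 3 lower, zinc 1 higher and 0 lower, manganese 0 higher and 5 lower, and LSKO against WT 3 higher and 2 lower. With selenite this was 2 higher and 1 lower without untreated LSKO replicate 1, where Fbn1 was lost (adjusted p = 0.117), and 0 higher and 5 lower without replicate 2. For LSKO against WT it was 1 higher and 0 lower without untreated LSKO replicate 2 or either WT library. The list sum, 850 to 1290 normalized CPM, includes genes that hepatocytes also make, such as fibronectin.

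The pericyte and vascular smooth muscle list had 8 of 16 genes tested, with 3 lower and 0 higher with iron (median -0.92). Abcc9 and Kcnj8 encode subunits of the potassium channel of pericytes. Abcc9 had 8 reads with iron, 26 with selenite, 28 with zinc and 52 with manganese, against 67 and 89 in untreated LSKO cells, and 100 and 75 in WT cells. It was lower with iron (log2 fold change -2.95, adjusted p = 0.00234), selenite (-1.28, 0.0244) and zinc (-1.45, 0.0408). Without untreated LSKO replicate 2 the selenite call (0.0597) and the zinc call (0.0824) were lost, as they were with DESeq2 (0.187 and 0.391), and the zinc call was also lost without either WT library (0.0637 and 0.0626). Kcnj8 had 68 reads with iron, 180 with selenite and 132 with zinc, against 179 and 207 in untreated LSKO cells. It was called lower with iron (log2 fold change -1.19, adjusted p = 0.0124) and not with selenite (0.20, 0.529) or zinc (-0.53, 0.242). Selenite called 2 of the 8 lower, zinc 1 and manganese 1, and LSKO against WT 1 higher.

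Portal fibroblast genes were scarce. Only 5 of 15 had enough reads to be tested, Fbln1 had 0 reads in every library, and the sum was 6.63 with iron, 10.1 with selenite, 8.48 with zinc and 7.92 with manganese, against 9.87 and 8.31 normalized CPM in untreated LSKO cells, and 10.0 and 11 in WT cells. Of the 5, edgeR's test called Il33 with selenite and 0 with iron, zinc or manganese or in LSKO against WT. Il33, for an alarmin cytokine, was higher with selenite, with 105 reads, against 56 and 68 in untreated LSKO cells (log2 fold change 1.06, adjusted p = 0.0217). The Il33 call was lost without either untreated LSKO library (0.0751 without replicate 1, 0.0592 without replicate 2) and with DESeq2 (0.252). The matrix gene Fbln2 had 0 reads with iron, 1 with selenite and 1 with zinc, against 8 and 11 in untreated LSKO cells, and 33 and 15 in WT cells.

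Other genes act in the folding and processing of collagen. Of 22 collagen processing genes 17 were tested, with 1 lower with iron, 3 with selenite, 0 with zinc and 1 with manganese, and 0 higher in each, where 4.89%, 9.67%, 1.55% and 15.1% of all genes tested were lower. The prolyl isomerase gene Fkbp10 had 3 reads with selenite, against 27 and 29 in untreated LSKO cells (fitted log2 fold change -2.88, adjusted p = 0.0186, 0.111 with DESeq2). Of 25 TGF-beta and PDGF signaling genes 22 were tested, and 2 were lower and 0 higher with iron, 6 lower and 1 higher with selenite, 1 lower and 0 higher with zinc, 1 lower and 1 higher with manganese, and 2 lower and 1 higher in LSKO against WT. Pdgfb, the ligand of the receptor encoded by Pdgfrb and a product of endothelial cells, had 20 reads with iron, 93 with selenite and 50 with zinc, against 140 and 86 in untreated LSKO cells (log2 fold change with iron -2.21, adjusted p = 0.03, and 0.0554 and 0.0556 without WT replicate 1 and 2). Of 15 matrix breakdown genes 9 were tested, 2 higher and 1 lower with selenite, 1 higher and 1 lower with manganese, 1 lower with iron and 0 changed with zinc. The collagenase genes Mmp8 and Mmp13 were the 2 higher with selenite, with 61 and 33 reads, against 1 and 3 for Mmp8 and 7 and 13 for Mmp13 in untreated LSKO cells. The Mmp13 call was lost without untreated LSKO replicate 1 (adjusted p = 0.113) and with DESeq2 (0.251).

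Markers of other liver cells were read beside the 10 genes. Of 15 sinusoidal endothelial markers, 11 were lower with iron, 9 with selenite, 4 with zinc and 1 with manganese, and 0 were higher in each. In LSKO against WT 6 were lower and 0 higher (median log2 fold change -0.47), a comparison in which 2 of the 10 genes were higher and 1 lower. With iron, edgeR called 7 lower without untreated LSKO replicate 1 or either WT library and 13 without untreated LSKO replicate 2. With zinc it called 9 lower without untreated LSKO replicate 2. The 6 in LSKO against WT became 9 without untreated LSKO replicate 1, 1 without replicate 2 and 0 without either WT library. Their sum was 138 normalized CPM with iron, 185 with selenite, 184 with zinc and 261 with manganese, against 300 and 233 in untreated LSKO cells, and 360 and 387 in WT cells. With selenite this sum was 0.696 of untreated LSKO cells, where the sum of the 10 genes was 0.976. Kdr, the main receptor of vascular endothelial growth factor, had 34 reads with iron, against 327 and 218 in untreated LSKO cells. The sinusoidal lectin gene Clec4g had 7 with iron, against 196 and 162 in untreated LSKO cells. All 15 markers were called lower in iron, selenite and zinc LSKO cells against WT cells, with a median log2 fold change of -1.39.

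Bile duct markers summed to 114 normalized CPM with iron, 138 with selenite, 126 with zinc and 121 with manganese, against 157 and 136 in untreated LSKO cells, and 169 and 183 in WT cells. Of 7 tested, 3 were lower with iron, Spp1, Pkhd1 and Krt19 (adjusted p = 0.000918, 0.00128 and 0.0019), and 0 higher. With selenite Spp1 was higher (log2 fold change 0.58, adjusted p = 0.0471) and 2 were lower, with zinc 1 was lower, with manganese 2, and in LSKO against WT 1. The selenite call of Spp1 was lost with DESeq2 (0.102) and without untreated LSKO replicate 2 (0.167) or either WT library (0.131 each). Kupffer cell markers summed to 380 with iron, 480 with selenite, 429 with zinc and 619 with manganese, against 354 and 405 in untreated LSKO cells, and 300 and 274 in WT cells. Of 14 tested, 7 were lower with iron and 0 higher, while selenite, zinc and manganese called 4, 3 and 4 higher and manganese also 1 lower. The median log2 fold change of these markers with iron was -0.75. C1qa had 110 reads with iron, 435 with selenite, 342 with zinc and 554 with manganese, against 334 and 513 in untreated LSKO cells. It was called lower with iron (log2 fold change -1.62). The macrophage receptor gene Marco had 231 reads with iron, 526 with selenite, 584 with zinc and 635 with manganese, against 182 and 207 in untreated LSKO cells. With iron Marco went the other way from the list (log2 fold change 0.56) and was not called.

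Hepatocyte markers summed to 33000 normalized CPM with iron, 54000 with selenite, 39800 with zinc and 45600 with manganese, against 31700 and 40000 in untreated LSKO cells, and 23200 and 22200 in WT cells. With iron 1 was higher and 1 lower of 15, with selenite 7 were higher and 0 lower, and 13 were higher and 0 lower in LSKO against WT. Without untreated LSKO replicate 1 this was 1 higher and 5 lower with iron and 2 higher and 0 lower with selenite. The ratio of the 10 mesenchymal genes to the hepatocyte markers, relative to untreated LSKO cells, was 0.454 with iron, 0.636 with selenite, 0.699 with zinc and 0.762 with manganese, against 1.45 and 1.58 in WT cells. Mesothelial markers, 0 of 8 with enough reads to be tested, summed to at most 0.692 normalized CPM and blood cell markers to at most 2.67. No defining marker of endothelial, Kupffer or hepatocyte cells was at 0 in all libraries, and their part in the levels of the 10 genes was not tested.

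**Figure D4:**
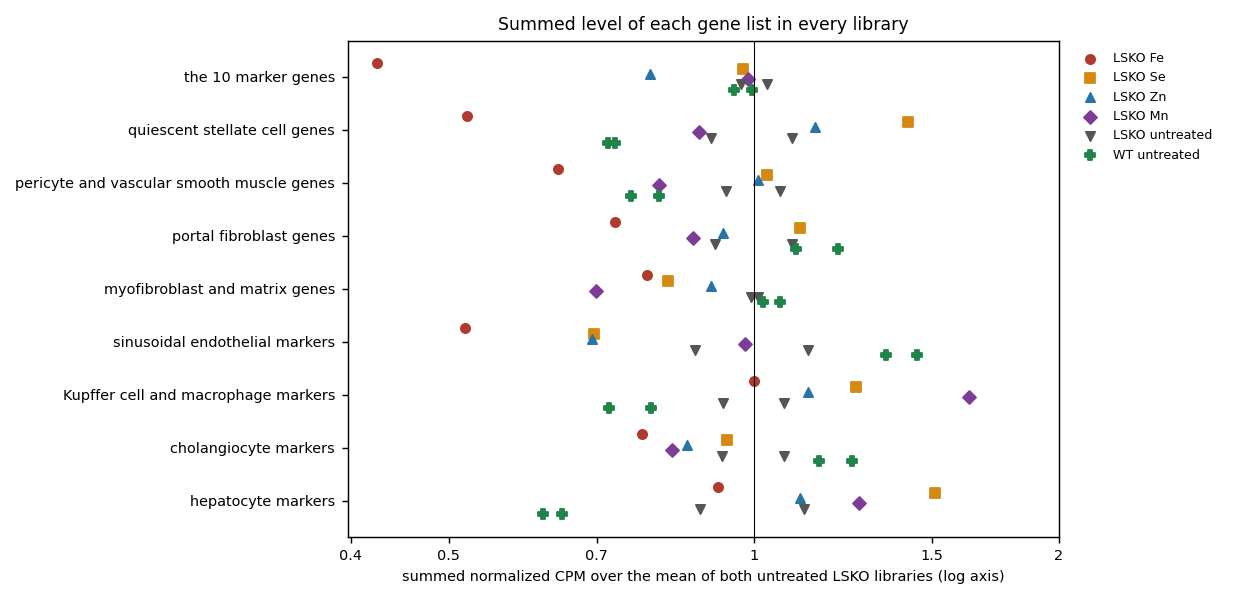
Summed normalized CPM of each gene list in every library, divided by the mean of both untreated LSKO libraries (log axis). Each symbol is 1 library. Iron lies at 0.425 for the 10 marker genes, 0.521 for quiescent stellate cell genes and 0.519 for sinusoidal endothelial markers, and at 0.921 for hepatocyte markers and 1.00 for Kupffer cell markers. A sum is led by its most abundant genes. Of 14 Kupffer cell markers tested, 7 were called lower with iron and 0 higher, with a median log2 fold change of -0.75.

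Over the 8 libraries, the genes whose levels followed the mean log2 level of the 10 genes most closely were Parva (Pearson r = 0.976), Abcc9 (0.97), Gpr182 (0.964), Flt4 (0.962) and Zswim6 (0.96), out of 12344 genes with a mean of at least 50 reads. These are descriptions, since all 8 points share the same depths and normalization and 3 of them lie low. Parva, for parvin alpha, an adaptor of focal adhesions, had 39.2 normalized CPM with iron, 50.1 with selenite, 50.5 with zinc and 56.8 with manganese, against 61.0 and 56.7 in untreated LSKO cells, and 60.4 and 60.1 in WT cells. Flt4 and Gpr182 are receptors of endothelial cells. Flt4 had 5.78 normalized CPM with iron, 6.92 with selenite and 8.44 with zinc, against 18.2 and 15.4 in untreated LSKO cells.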

How the data were processed

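RNA of 8 libraries of primary hepatocytes was sequenced. The authors deposited raw counts of reads per gene, from hisat2 alignment and HTSeq-Count. Trimmomatic and the build GRCm38 are named in the submitters' processing notes. Strand setting, annotation release and quality minimum were not given in the sources used here. GENCODE M21 matched each of the 55450 gene identifiers and gave symbols, coordinates, transcript lengths and GC content. Summary lines entered neither library sizes nor tests. Reads in no gene were 42.3% to 45.6% of each library and 4.48% of the manganese library, and unaligned reads 4.12% to 10.0%.

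Genes with at least 80 reads in all (15468) were tested in R 4.3.3 with edgeR 4.0.16, as 6 group means over the 8 libraries with TMM factors. The biological coefficient of variation was 8.29%, with 2 residual and 8.53 prior degrees of freedom. The SE of a log2 fold change is its size over the root of F, and Benjamini-Hochberg adjustment ran over all genes tested. The test was also run on simulated counts, but the outcome is not given here, so its error rate for single libraries is not shown.

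The 10 genes, the 13 other lists (216 genes) and the tests were chosen with earlier results of these data known. From each other list up to 3 genes were named, those with the largest called changes, or the most abundant where none was called, besides the 5 genes nearest to the mean of the 10 in Pearson r. Iron against selenite and zinc was added after seeing the data. Alternatives were DESeq2 1.42.0, median-ratio size factors, no filter, each untreated replicate left out, a spline correction for length and GC content (MASS 7.3.60.0.1), genes without opposite-strand exons, a replicate block, the 4 untreated libraries alone, and other scalings of the summed level. The other lists and their named genes were run with DESeq2, the length and GC correction and each untreated replicate left out, added after seeing the data.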

Additional observations from a re-analysis of the deposited data

Results flagged for a closer look

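Among treated LSKO cells, 4 of the 10 genes were called between treatments by a test of the difference itself. Each treatment was 1 library, taken to vary as the untreated LSKO and WT pairs do. Over all genes tested, 15.9% were called for selenite against iron and zinc, and 18.1% for iron against selenite and zinc. Against untreated LSKO cells, selenite cells had log2 fold changes of 0.01 for Acta2, -0.03 for Lrat, 0.29 for Dcn and 0.09 for Rgs5, none called. Set against the mean of iron and zinc cells, selenite cells had log2 fold changes of 2.17 for Acta2 (standard error 0.372, adjusted p = 0.00338 from edgeR's test), 0.95 for Lrat (0.243, 0.0189), 0.84 for Dcn (0.13, 0.00232) and 0.69 for Rgs5 (0.207, 0.0357). The Rgs5 call was lost without WT replicate 1 (log2 fold change 0.65, adjusted p = 0.058) or WT replicate 2 (0.65, 0.0583). Set against the mean of selenite and zinc cells, iron cells had -3.47 for Acta2 (standard error 0.498, adjusted p = 0.00105), -1.24 for Lrat (0.275, 0.00865), -1.14 for Dcn (0.144, 0.000596) and -0.91 for Rgs5 (0.225, 0.0141). The iron comparison was chosen after seeing the data, and both comparisons use the same 3 libraries, so they are not separate evidence. In these libraries Acta2 had 8 reads with iron, 111 with selenite and 90 with zinc, and Dcn had 222, 558 and 529.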

How the results depend on the processing

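Of the 10 genes, no call changed direction under an alternative. Nor did a call of a gene named from the other lists with DESeq2, with 1 untreated library left out or with the length and GC correction, but DESeq2 lost 27 of these 115 calls and gave no adjusted p for 19, the correction 13, and leaving out 1 library 4 to 25. The 10 genes called in LSKO against WT numbered 3, and 0 to 3 with 1 untreated library left out (0 without WT replicate 1, 1 without WT replicate 2). Leaving out 1 library gave 5 throughout for iron, 1 to 3 for selenite (3 with all libraries, 1 without LSKO replicate 1), 2 to 3 for zinc, 5 to 8 for iron, selenite and zinc against WT, 3 to 5 for selenite against iron and zinc, and 4 for iron against selenite and zinc. DESeq2 called 1 gene with selenite, 1 with zinc, 3 of the 7 for iron, selenite and zinc against WT (Col1a1 and Pdgfrb had no adjusted p there) and 2 of the 4 for selenite against iron and zinc. The length and GC correction left 1 of the 3 selenite calls. The causes were not tested. Scaled by total gene reads, the summed level over untreated LSKO was 0.825 with selenite and 0.746 with zinc, and per hepatocyte marker read it was 0.636 with selenite, 0.699 with zinc, 0.762 with manganese and 1.45 and 1.58 in WT. Of the single values of the 10 genes under alternatives, 673 stayed on their side of the threshold, 28 lost and 9 gained a call, and 14 had no adjusted p.

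Same-numbered LSKO and WT replicates did not deviate together (correlation -0.0707). Whether they share more than a number is not stated, and this correlation cannot settle it. The replicate block gave 1725 genes called, against 1612 for the 4 untreated libraries alone, and Reln was lost in both (adjusted p = 0.0519 and 0.0588). Over all genes tested, DESeq2 called 1039 genes in LSKO against WT (1615 by edgeR), 750 with iron (1345), 1649 with selenite (2717), 415 with zinc (688), 1371 for iron, selenite and zinc against WT (2173), 1529 for selenite against iron and zinc (2456) and 1722 for iron against selenite and zinc (2801). LSKO against WT called 735 without WT replicate 1, 778 without WT replicate 2 and 1014 without LSKO replicate 2, and iron, selenite and zinc against WT called 1022 without WT replicate 2. The length and GC correction left 1386, 1096 and 1818 for selenite, selenite against iron and zinc, and iron against selenite and zinc, no filter gave 1164 with zinc, and the 9900 genes free of opposite-strand exons gave 136 calls with manganese (2654 of all genes), 1519 in selenite against iron and zinc and 1808 in iron against selenite and zinc. Counts were under 20 reads for Col1a1, Col1a2, Des and Pdgfrb with iron and selenite, for Acta2 with iron, for Col1a1, Des and Pdgfrb with zinc, for Pdgfrb with manganese and for Reln in WT replicate 2.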

Other observations

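S100a8 was nearly at 0 in some cultures and not in others, and Podn was low in all of them. S100a8, a neutrophil and monocyte gene, had 46 reads with selenite, 31 with zinc, 20 with manganese and 0 with iron, against 0 and 1 in untreated LSKO cells, and 2 and 0 in WT cells. It was the only 1 of 12 blood cell markers with enough reads to be tested. Podn, the most abundant of the 8 mesothelial markers, had 5 reads with iron, 7 with selenite, 8 with zinc and 8 with manganese, against 1 and 4 in untreated LSKO cells, and 1 and 0 in WT cells.

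Macrophage elastase, Mmp12, was lower in untreated LSKO cells, with 321 and 140 reads, against 569 and 496 in WT cells (log2 fold change -1.12, adjusted p = 0.0427 from edgeR's test), lost with DESeq2 (0.442), without either WT library (0.195 and 0.248) and without untreated LSKO replicate 2 (0.0504). Mmp12 shares 157 exon bases with Mmp1b on the opposite strand. The growth factor gene Pdgfd had 6 and 4 reads in untreated LSKO cells, against 32 and 20 in WT cells (log2 fold change -2.28, adjusted p = 0.0186), and 5 or 6 reads in each treated LSKO library. The Pdgfd call was lost with DESeq2 (0.287), without either WT library (0.0928 and 0.0504) and without untreated LSKO replicate 2 (0.25). In LSKO cells as a whole its counts did not overlap with those of WT cells.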
